A study of Mus musculus with 18 samples.

Results

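The lysyl oxidase family comprises the genes Lox, Loxl1, Loxl2, Loxl3 and Loxl4. They were taken by gene symbol, with the values of all RefSeq transcripts of a symbol summed, and make up 5 of the 17267 gene symbols in the deposited tables. All 5 were measured in each of 18 libraries and all 5 passed the filter on low counts in both fits.

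The study sequenced poly(A) RNA of wild type (WT) mouse primary preadipocytes, the fat cell precursors, which its design text places in epididymal white adipose tissue (eWAT). Each of 6 groups has 3 libraries. Preadipocytes of mice on control diet (CD) received the cytokine TGF-b1 together with SB431542, a small molecule that blocks the kinase activity of the receptor ALK5. A second group of CD cells received TGF-b1 alone. Preadipocytes of mice on high-fat diet (HFD) were left as mock, and so were CD preadipocytes that served as control. In the remaining groups, cells were sorted with an antibody to CD49e, the integrin alpha 5 protein encoded by Itga5, and induced to become adipocytes, as an Itga5-High and an Itga5-Low fraction. All groups therefore share the WT genotype and culture of primary cells, and the sorted groups also share adipogenic differentiation. The labels state no dose, time or animal age and no diet for the sorted cells. Nor do they state whether replicates came from different animals or dishes, so each p reflects library-to-library spread alone, possibly technical.

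Lysyl oxidases are secreted copper-dependent amine oxidases. They oxidise lysine and hydroxylysine side chains of collagens and elastin to aldehydes, which then condense into the covalent crosslinks that stiffen the matrix. Lox and Loxl1 are made with a propeptide that proteases of the Bmp1 type remove, whereas Loxl2, Loxl3 and Loxl4 carry scavenger receptor cysteine-rich domains ahead of the catalytic part. In fat, collagen crosslinking is a recognised part of fibrosis, and Lox is a textbook target of TGF-b in fibroblasts.

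The members share a catalytic domain with a histidine-rich copper-binding stretch, shown because it is the feature that unites genes whose levels moved so differently here. The coding sequences of the 33 bases in Loxl1 to Loxl4, from GENCODE M21 transcripts (GRCm38, the mm10 assembly), have their 4 histidine codons in capitals.
Loxl1: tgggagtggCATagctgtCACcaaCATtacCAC
Loxl2: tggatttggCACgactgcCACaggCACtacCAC
Loxl3: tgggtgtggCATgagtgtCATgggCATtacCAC
Loxl4: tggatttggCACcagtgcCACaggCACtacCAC
In these sequences 20 of the 33 positions were identical in all 4 genes. Loxl2 and Loxl4 differed least, with 31 identical bases, and Loxl1 and Loxl4 most, with 21. Each stretch is split by an intron, so that the coordinates span more than its bases. They are chr9:58293720-58294381 on the minus strand in exons 3 and 4 of 7 for Loxl1, and chr14:69682316-69689037 on the plus strand in exons 10 and 11 of 14 for Loxl2. For Loxl3 they are chr6:83049995-83050125 on the plus strand, in exons 10 and 11 of 14, and for Loxl4 chr19:42598807-42599899 on the minus strand, in exons 11 and 12 of 15. The genes themselves extend over chr9:58287723-58313212, chr14:69609476-69695834, chr6:83034205-83052566 and chr19:42592279-42612806 in the same order, by the RefSeq transcripts in the files.

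For orientation, the summed transcripts of the family, per kb of transcript length, were at 424 ± 1.05 CPM per kb with TGF-b1 and SB431542, 2244 ± 10.8 with TGF-b1, 1514 ± 9.87 in HFD mock and 1146 ± 2.52 in CD mock (SD, n = 3 libraries each). They lay between 3073 and 3092 CPM per kb in Itga5-High libraries and between 2755 and 2794 in Itga5-Low libraries. CPM values are counts scaled so that every library has the same total. The deposited totals lay between 11154426 and 17288580 counts. Fold changes come from edgeR's quasi-likelihood test after TMM scaling, which allows for differences in RNA composition, and so are not exact ratios of the printed CPM. All 7 preadipocyte and fibroblast markers were counted in every group, with a summed level between 6259 CPM in a library with SB431542 and 28284 CPM in an Itga5-High library. That sum includes Col1a1, a substrate gene that averaged 2275 CPM with TGF-b1 and SB431542, 13607 with TGF-b1 and 9116 in CD mock. Of the 7 markers, 5 were called lower with TGF-b1 than in mock, and 5 were called higher with SB431542 than with TGF-b1 alone, so the sum and most of its members ran in opposite directions. Dcn, the proteoglycan decorin, averaged 1847 CPM with TGF-b1 and SB431542, 152 with TGF-b1 and 998 in CD mock.

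**Figure D1:**
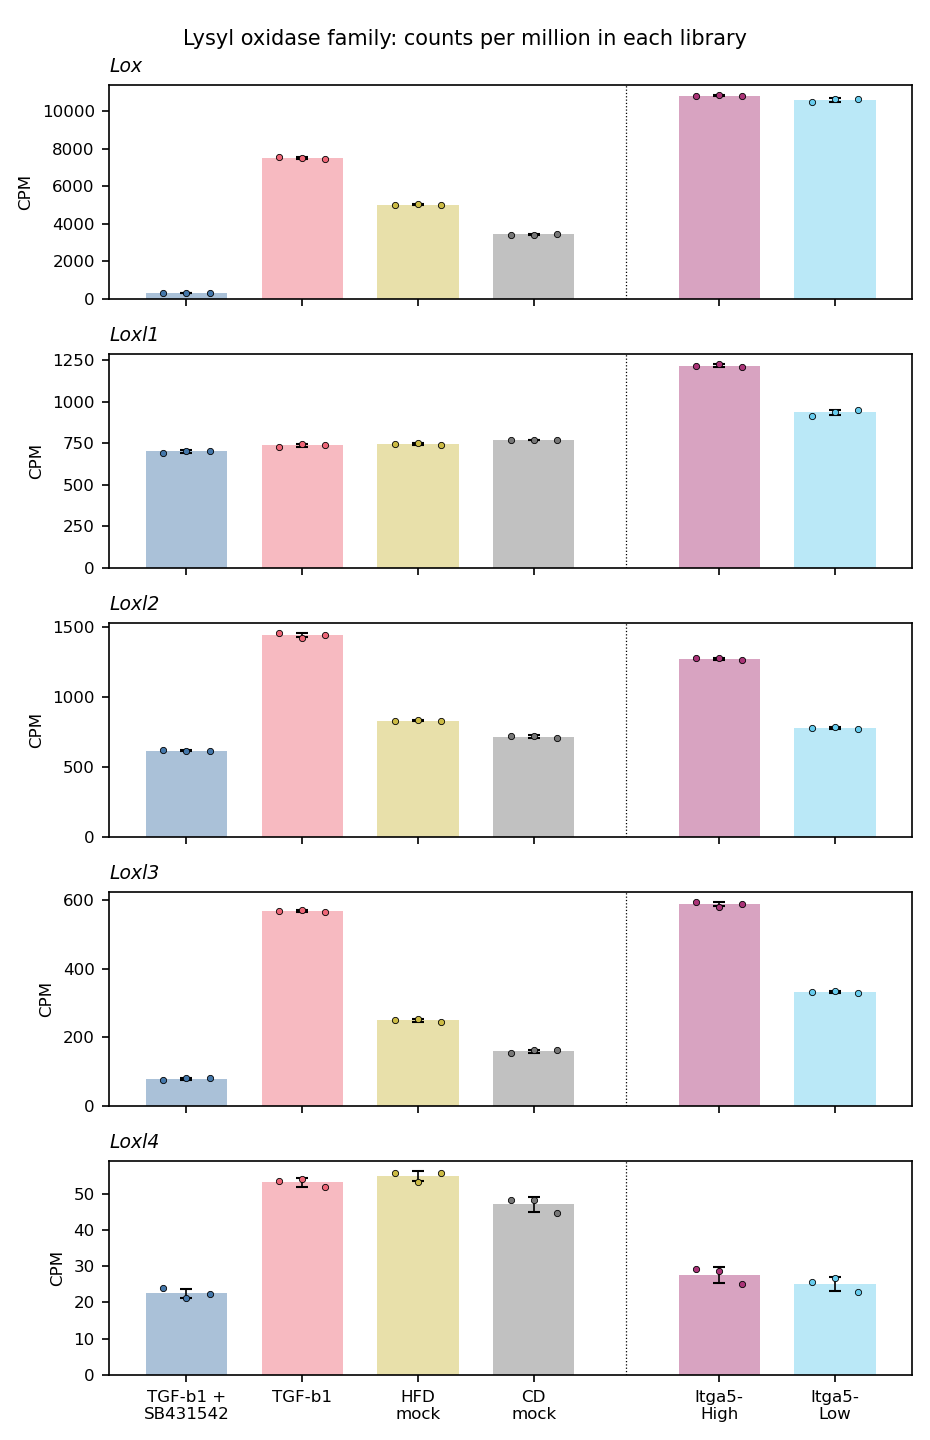
CPM of the 5 members (vertical axis, linear from 0, 1 panel per gene) in 6 groups (horizontal axis). Points are libraries, bars are group means, error bars are SD (n = 3), and the dotted line separates undifferentiated cells from sorted, differentiated cells, which come from a table of their own. Lox spans 32.3-fold between its lowest and highest group mean and Loxl1 1.74-fold.

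Lox, the founding member and main collagen and elastin oxidase, was the member with the widest range. It had 339.8, 339 and 329 CPM with TGF-b1 and SB431542 and 7555, 7508 and 7471 CPM with TGF-b1 alone. HFD mock libraries had 4999, 5058 and 5004 CPM, and CD mock libraries 3426, 3417 and 3461 CPM. The undifferentiated groups thus lay in 4 separate bands without overlap.

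With TGF-b1, Lox rose 2.42-fold over mock, a log2 change of 1.28 ± 0.0078 (SE; edgeR adjusted p = 1.56e-76). When SB431542 was added, Lox was 26.7-fold lower than with TGF-b1 alone, at -4.74 ± 0.010 log2 (edgeR adjusted p = 7.28e-103). It also lay 11.0-fold below untreated CD mock, at -3.46 ± 0.010 log2. The inhibitor group therefore lay below the mock level as well, in 3 of 3 libraries. In HFD mock, Lox was 1.55-fold higher than in CD mock, at 0.63 ± 0.0078 log2 (edgeR adjusted p = 3.61e-59).

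After differentiation Lox stood at 10807, 10874 and 10804 CPM in Itga5-High cells, against 10499, 10619.8 and 10665 CPM in Itga5-Low cells. The sorted fractions did not overlap, yet their difference was small, at 0.072 ± 0.0059 log2 or 1.05-fold (edgeR adjusted p = 1.34e-15), and 0.031 log2 or 1.02-fold with total counts. Both lay above every undifferentiated library in CPM. The 2 tables were prepared separately, so this order is given without a test.

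Loxl1, which is needed for elastic fibre upkeep in mice, was the steadiest member. Its levels were 693, 704 and 705 CPM with TGF-b1 and SB431542, and 727, 746 and 737 CPM with TGF-b1. They were 744, 748 and 739 CPM in HFD mock, where the range overlapped that of TGF-b1, and 771, 772 and 771 CPM in CD mock. All undifferentiated libraries therefore lay within a narrow strip, and only the inhibitor group was lower than TGF-b1 and mock under both scalings. The change was -0.33 ± 0.013 log2 against TGF-b1 after TMM scaling but -0.073 with total counts, and -0.25 ± 0.013 against mock after TMM scaling but -0.14 with total counts.

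The sign of Loxl1 in the other 2 undifferentiated comparisons turned with the scaling. For TGF-b1 against mock it was 0.082 ± 0.013 log2 after TMM scaling (edgeR adjusted p = 1.41e-07) but -0.066 with total counts (edgeR adjusted p = 1.14e-05). For HFD against CD mock it was 0.031 ± 0.013 log2 after TMM scaling (edgeR adjusted p = 0.0406) but -0.053 with total counts (edgeR adjusted p = 0.000423). The HFD call was also lost in DESeq2 (adjusted p = 0.0652), and its change ranged from 0.026 to 0.035 log2 with 1 library left out. It was no longer called without CD mock replicate 1 (0.030), CD mock replicate 2 (0.032), CD mock replicate 3 (0.028), HFD mock replicate 1 (0.030) or HFD mock replicate 2 (0.026), though without HFD mock replicate 3 it was. No direction of Loxl1 is therefore given for TGF-b1 or for the diet.

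Loxl1 did differ between the sorted fractions. Itga5-High cells had 1212, 1228 and 1209 CPM, against 916, 939.5 and 949 CPM in Itga5-Low cells. The ranges were apart, and the fold was 1.34 (0.42 ± 0.012 log2, edgeR adjusted p = 1.16e-35).

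Loxl2, an oxidase known for crosslinking collagen IV of basement membranes, responded to TGF-b1 much as Lox did but not to the same depth with the inhibitor. Libraries with TGF-b1 and SB431542 had 622, 612 and 616 CPM, and those with TGF-b1 had 1455, 1423 and 1444 CPM. HFD mock had 829.9, 838 and 825 CPM, and CD mock 720.0, 723 and 706 CPM. The TGF-b1 libraries stood alone at the top, and the inhibitor group lay slightly under mock.

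Loxl2 rose 2.23-fold with TGF-b1 over mock (1.16 ± 0.012 log2, edgeR adjusted p = 2.40e-63). It was 2.79-fold lower with SB431542 than with TGF-b1 alone (-1.48 ± 0.012 log2), and 1.25-fold lower than mock (-0.33 ± 0.014 log2, or -0.22 with total counts). In HFD mock it was 1.23-fold higher than in CD mock (0.30 ± 0.013 log2, edgeR adjusted p = 1.08e-29).

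In sorted, differentiated cells Loxl2 reached 1277, 1276 and 1265 CPM in the Itga5-High fraction, against 781, 783 and 767 CPM in the Itga5-Low fraction. It was 1.68-fold higher in Itga5-High cells (0.75 ± 0.011 log2, edgeR adjusted p = 4.30e-48). Loxl2 exons share 301 bases with Gm27177 on the opposite strand, whose reads cannot be told apart without stranded counting.

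Loxl3, an oxidase required for palate and spine development in mice, had the largest proportional rise with TGF-b1 among the members. It had 76.8, 80.9 and 81.8 CPM with TGF-b1 and SB431542, and 567, 571 and 565 CPM with TGF-b1. HFD mock had 251, 254 and 245 CPM, and CD mock 155, 162 and 162 CPM. As with Lox, these were 4 bands without overlap, in the same order.

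With TGF-b1 over mock Loxl3 rose 3.93-fold (1.97 ± 0.020 log2, edgeR adjusted p = 7.15e-64). With SB431542 it was 8.50-fold lower than with TGF-b1 alone (-3.09 ± 0.023 log2) and 2.16-fold lower than mock (-1.11 ± 0.031 log2). In HFD mock it was 1.65-fold higher than in CD mock (0.73 ± 0.023 log2, edgeR adjusted p = 2.26e-36).

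Itga5-High cells had 595, 581 and 589 CPM of Loxl3, against 333, 335 and 329 CPM in Itga5-Low cells. At 1.82-fold (0.87 ± 0.016 log2, edgeR adjusted p = 1.60e-44), it had the largest difference of the members between the fractions. Exons of Loxl3 share 535 bases with those of Htra2 on the opposite strand, and the strandedness of the counting is not given. Htra2, a mitochondrial protease gene, had between 42.2 and 64.6 CPM in all 18 libraries, a narrower range than that of Loxl3. After TMM scaling Htra2 was called in the same direction as Loxl3 in all 5 comparisons. Its changes were 0.14 ± 0.047 log2 for TGF-b1 against mock, -0.27 ± 0.047 for SB431542 with TGF-b1 against TGF-b1 and -0.13 ± 0.048 for that group against mock. They were 0.13 ± 0.046 log2 for HFD against CD mock and 0.38 ± 0.048 for Itga5-High against Itga5-Low cells. With total counts Htra2 was called only between the sorted fractions, at 0.34 log2. The part of Htra2 reads in the Loxl3 counts was not tested.

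Loxl4, the least abundant member, had between 263 and 836 counts per library, and its replicates were correspondingly wider. It was at 23.9, 21.3 and 22.4 CPM with TGF-b1 and SB431542, and at 53.5, 53.9 and 51.8 CPM with TGF-b1. HFD mock libraries had 55.7, 53.3 and 55.7 CPM, and CD mock libraries 48.2, 48.3 and 44.6 CPM. HFD mock overlapped TGF-b1, both were above CD mock, and the inhibitor group was by far the lowest of the 4.

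Loxl4 rose 1.25-fold with TGF-b1 over mock (0.32 ± 0.049 log2, edgeR adjusted p = 5.70e-08), or 1.13-fold with total counts. With SB431542 it was 2.81-fold lower than with TGF-b1 (-1.49 ± 0.057 log2) and 2.25-fold lower than mock (-1.17 ± 0.061 log2). In HFD mock it was 1.24-fold higher than in CD mock (0.31 ± 0.048 log2, edgeR adjusted p = 1.46e-07).

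In differentiated cells Loxl4 was low in both fractions. Itga5-High cells had 29.3, 28.6 and 25.0 CPM, against 25.7, 26.8 and 22.9 CPM in Itga5-Low cells, and the ranges overlapped. The edgeR test gave 0.19 ± 0.067 log2 (adjusted p = 0.0172), but the call was lost in DESeq2 (adjusted p = 0.0693) and with total counts (edgeR adjusted p = 0.0643). It was also lost without Itga5-High replicate 1 (0.13 log2), without Itga5-High replicate 2 (0.17 log2) and without Itga5-Low replicate 3 (0.12 log2), so no difference is claimed.

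With receptor inhibition all 5 members were called lower under every alternative, so that trait is not particular to Loxl4. The promoter of Loxl4 is printed because it is the only family promoter in the RefSeq sequences used here. It covers 250 bases before to 50 after the annotated start, at chr19:42612757-42613056 (GRCm38.p6, minus strand), with motif matches in capitals.
Loxl4 promoter: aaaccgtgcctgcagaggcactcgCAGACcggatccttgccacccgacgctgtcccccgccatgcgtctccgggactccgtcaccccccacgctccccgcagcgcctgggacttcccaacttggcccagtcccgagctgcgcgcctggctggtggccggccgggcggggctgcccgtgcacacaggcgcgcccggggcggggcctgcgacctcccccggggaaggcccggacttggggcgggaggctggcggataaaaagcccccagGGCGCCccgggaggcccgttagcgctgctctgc
Both strands were searched for 4 motifs that do not overlap each other here. The Smad box CAGAC occurred once, at offset -226 from the start, and is present in 49.6% of 32851 mouse promoters of this length. The GC-rich Smad element GGCGCC occurred once, at offset 17, and is present in 11.9% of them. Neither the AP-1 element TGANTCA (in 7.81% of promoters) nor the TEAD element GGAATG (in 14.7%) was in this window. These matches describe letters and show no binding.

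**Figure D2:**
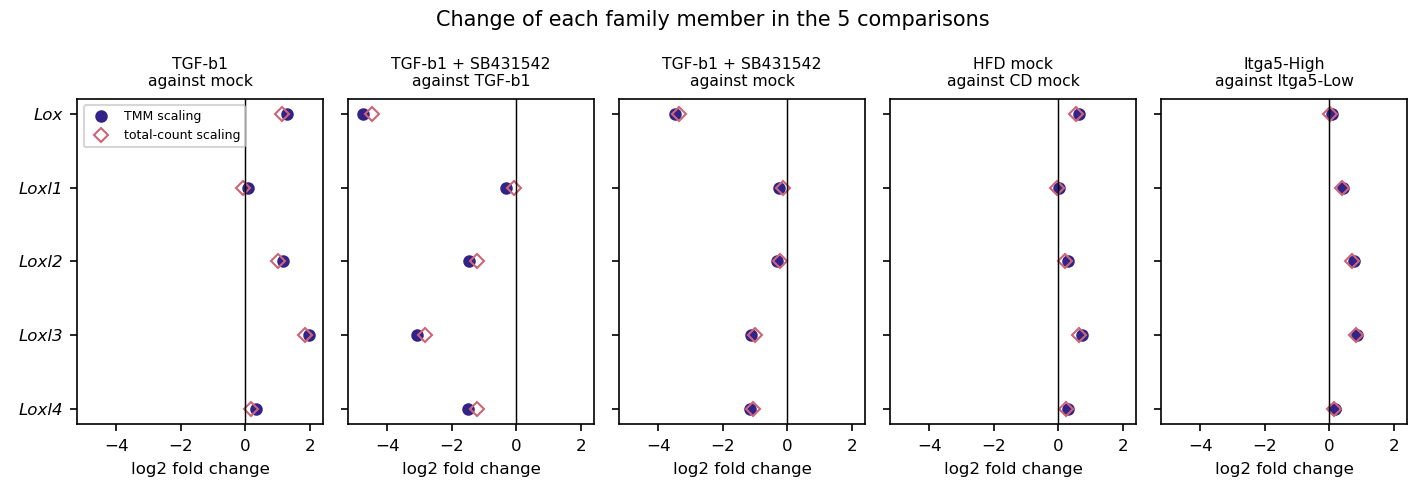
Log2 fold change (horizontal axis) of each member (vertical axis) in the 5 comparisons, 1 panel each. Filled circles are edgeR estimates after TMM scaling with 95% confidence intervals, mostly hidden by the symbols, and open diamonds are estimates with total-count scaling. Loxl1 sits on both sides of 0 for TGF-b1 against mock and for HFD against CD mock, and Lox reaches -4.74 with SB431542 against TGF-b1.

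Read as a family, all 5 members were called higher with TGF-b1 over mock, where 33.5% of the 14078 genes tested were called higher and 34.3% lower, but 4 were higher and 1 lower with total counts. The family median was 1.16 log2, beside -0.017 for all genes. Lox, Loxl2 and Loxl3 rose by at least 1 log2 unit, which 3.59% of genes did. Scaling by total counts moved the median of all genes by -0.15 log2, so a change of the size seen for Loxl1 cannot be separated from it.

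With SB431542 against TGF-b1 all 5 members were called lower, where 38.2% of genes were and 41.5% were called higher, and 4 of them fell by at least 1 log2 unit, which 7.66% of genes did. The family median was -1.49 log2, beside 0.038 for all genes. Total counts moved that median of all genes by 0.26 log2 without turning any member.

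Against mock, all 5 members were lower with TGF-b1 and SB431542, where 30.5% of genes were called lower and 30.7% higher. Lox, Loxl3 and Loxl4 were lower by at least 1 log2 unit, which 2.83% of genes were, and the family median was -1.11 log2 beside 0.0063 for all genes. The comparisons that involve TGF-b1 or mock share those libraries, so they are not independent of each other.

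In HFD against CD mock all 5 members were called higher, or 4 higher and 1 lower with total counts, where 27.2% of genes were called higher and 26.8% lower. The family median was 0.31 log2, beside -0.0077 for all genes, and no member reached 1 log2 unit, as 4.35% of genes did. Set beside the TGF-b1 effect, which uses the same CD mock libraries, the diet difference was smaller for Lox (0.63 and 1.28 log2), Loxl2 (0.30 and 1.16) and Loxl3 (0.73 and 1.97), while for Loxl4 the values were 0.31 and 0.32 log2.

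Between Itga5-High and Itga5-Low cells all 5 members were called higher, or 4 with total counts, where 27.1% of the 13468 genes tested were called higher and 26.5% lower. The family median was 0.42 log2, beside -0.0033 for all genes. Loxl2 and Loxl3 differed most, and Lox, by far the most abundant member, differed little. The CPM of the groups compared did not overlap for any member except Loxl4 between the sorted fractions. For TGF-b1 and for HFD against CD mock, Loxl1 lay wholly lower in CPM, opposite to its call after TMM scaling. Of all genes tested, 70.6% did not overlap for TGF-b1 against mock, 81.8% for the inhibitor against TGF-b1, 65.5% for the inhibitor against mock, 60.5% for diet and 58.6% for the sorted fractions.

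The composition of the family does not depend on the scaling of libraries. It was computed as each member's share of the summed CPM per kb of transcript. In CD mock, Lox made up 63.6% ± 0.27, Loxl1 20.2% ± 0.058, Loxl2 12.1% ± 0.18, Loxl3 3.43% ± 0.085 and Loxl4 0.755% ± 0.036 (SD, n = 3).

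With TGF-b1 the share of Lox was 71.1% ± 0.15, against 63.6% ± 0.27 in mock, and that of Loxl1 was 9.84% ± 0.17, against 20.2% ± 0.058. With SB431542 added, Lox was at 16.8% ± 0.31 and Loxl1 at 49.5% ± 0.38, so that Loxl1 and then Loxl2 (28.1% ± 0.31) led the family in that group (SD, n = 3). In HFD mock, Lox was at 69.97% ± 0.10 and Loxl1 at 14.7% ± 0.039. The order of the members by level per kb was Lox, Loxl1, Loxl2, Loxl3, Loxl4 in HFD mock, CD mock and both sorted fractions, while Loxl2 stood before Loxl1 with TGF-b1.

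Among sorted cells, Lox made up 75.3% ± 0.070 in Itga5-High and 81.4% ± 0.056 in Itga5-Low cells. Loxl2 was at 7.97% ± 0.034 against 5.40% ± 0.087, and Loxl3 at 4.69% ± 0.067 against 2.94% ± 0.037 (SD, n = 3). Of the 25 share differences (5 members in 5 comparisons), 24 had ranges that did not overlap, the exception being Loxl4 between the sorted fractions. The two-sided exact permutation test gave p = 0.1 for each of those 24, the smallest p that 3 against 3 libraries can give. The shares in a library add up to the whole, so those within a comparison are not independent of each other. In CPM, between 58.6% and 81.8% of all genes tested did not overlap in these comparisons.

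**Figure D3:**
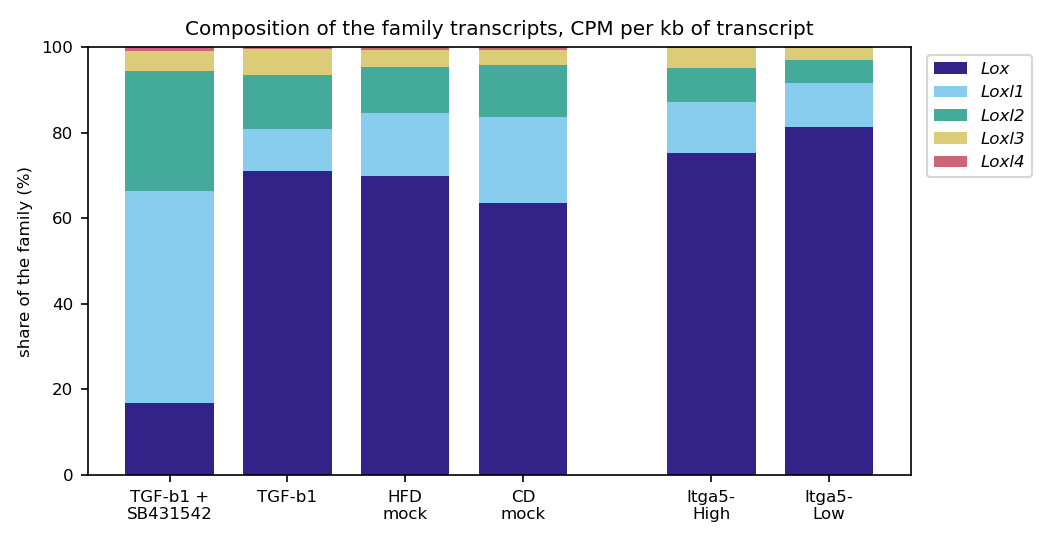
Share of each member in the summed CPM per kb of the family (vertical axis, percent, mean of 3 libraries) in the 6 groups (horizontal axis). Lox is the largest part of every bar except that of TGF-b1 with SB431542, where it is 16.8% and Loxl1 is 49.5%.

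Lox is counted over 3 RefSeq transcripts that end at the same position, the longest of them NM_010728 with 4897 bases. The share of Lox counts given to NM_010728 was 60.8% ± 0.21 in HFD mock, against 55.1% ± 1.35 in CD mock (SD, n = 3), and these ranges did not overlap. It was 53.6% ± 3.26 with TGF-b1 and SB431542 and 52.6% ± 1.61 with TGF-b1, both overlapping CD mock. In sorted cells it was 42.7% ± 0.55 in Itga5-High and 46.6% ± 0.88 in Itga5-Low cells, again without overlap. The exact permutation test gave p = 0.1 for diet and for sorted fraction, 0.2 for TGF-b1 against mock and 0.7 for the inhibitor group against mock. The shorter pair kept a near-constant ratio of 0.600 to 0.642 in all libraries. Loxl4 was split between 2 transcripts of 5437 and 5434 bases, whose shares varied widely between replicates, and Loxl1, Loxl2 and Loxl3 had 1 transcript each.

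**Figure D4:**
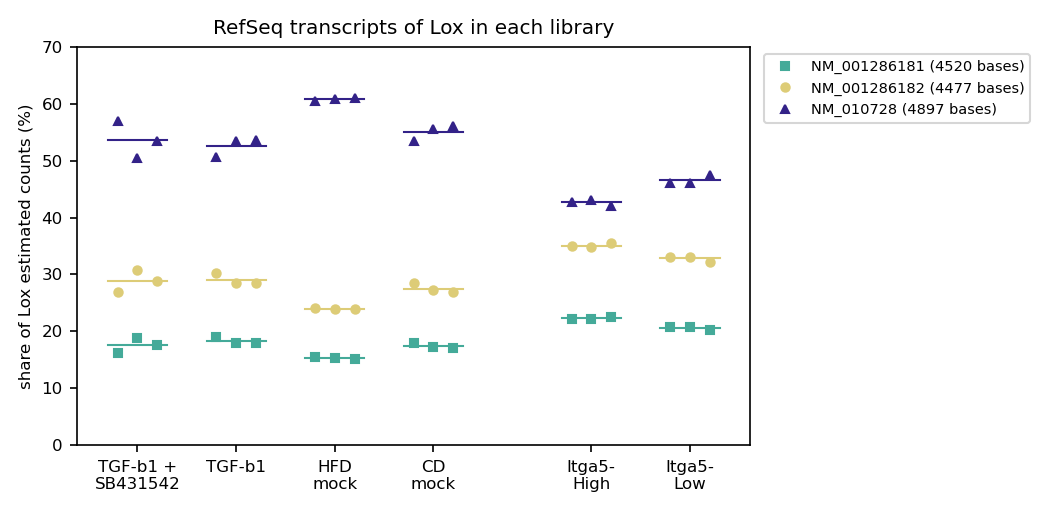
Share of Lox estimated counts (vertical axis, percent) given to each of its 3 RefSeq transcripts in every library, by group (horizontal axis). Symbols are libraries and short lines are group means. The longest transcript is highest in HFD mock, at 60.8%, and lowest in Itga5-High cells, at 42.7%.

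Genes that act with the family were followed as lists. Their counts stand beside these shares of all genes tested after TMM scaling. For TGF-b1 against mock 33.5% were called higher and 34.3% lower, and for the inhibitor against TGF-b1 41.5% and 38.2%. The shares were 30.7% and 30.5% for the inhibitor against mock, 27.2% and 26.8% for diet, and 27.1% and 26.5% for the sorted fractions. Of 11 tested genes for activation and matrix partners, 6 rose and 5 fell with TGF-b1 over mock, with a median of 0.11 log2. With total counts 5 rose and 5 fell, with a median of -0.042 log2. Bmp1, the protease that releases active Lox from its precursor, had 552 ± 7.29 CPM with TGF-b1 and 423 ± 4.79 CPM in mock (0.53 ± 0.017 log2). Tll1, a protease of the same family, rose by 2.82 ± 0.065 log2 to 69.3 ± 1.89 CPM, against 10.9 ± 0.30 CPM (SD, n = 3 each). Fbln5, a fibulin that tethers Loxl1 to elastic fibres, rose by 1.05 ± 0.025 log2, while Fn1, the fibronectin gene, and Adamts2, a procollagen protease, fell by 0.75 and 1.65 on the log2 scale.

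With SB431542 against TGF-b1, 5 of these genes were higher and 6 lower, or 6 higher and 5 lower with total counts. Bmp1 was lower by -1.25 ± 0.018 log2, Tll1 by -4.15 ± 0.078 and Fbln5 by -2.58 ± 0.030. Postn, the matricellular protein periostin that binds Bmp1, was lower by -2.18 ± 0.012. Against mock, 4 of the 11 were higher and 7 lower with TGF-b1 and SB431542. In HFD against CD mock 7 were higher, 2 lower and 2 not called, with Bmp1 at 0.57 ± 0.017 log2 and Tll1 at -1.11 ± 0.12. Between Itga5-High and Itga5-Low cells 5 were higher, 3 lower and 3 not called, with Bmp1 at 0.32 ± 0.012 and Postn at -0.51 ± 0.0066 log2. With total counts these splits were 4 higher and 6 lower for the inhibitor against mock, 6 higher and 3 lower for diet, and 5 higher and 4 lower for the sorted fractions.

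Of 9 tested substrate genes, 5 rose and 4 fell with TGF-b1 over mock. Col1a1, a fibrillar collagen chain, had 13607 ± 40.3 CPM with TGF-b1 and 9116 ± 52.2 CPM in mock (0.73 ± 0.0062 log2), and Col5a2 rose by 0.73 ± 0.0090. Col3a1, another fibrillar chain, and Eln, the elastin gene, fell by 1.16 and 0.80 on the log2 scale. With SB431542 against TGF-b1, 2 were higher and 6 lower, and with total counts 4 were higher and 5 lower. Eln then had 241 ± 3.02 CPM, against 58.9 ± 2.68 CPM with TGF-b1 (1.77 ± 0.033 log2).

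Against mock, 1 substrate gene was higher and 8 lower with TGF-b1 and SB431542, the higher one being Eln at 0.97 ± 0.029 log2, and 7 were lower with total counts. In HFD against CD mock 6 were higher and 3 lower, with Col5a1 at 0.98 ± 0.012 and Eln at -1.88 ± 0.044 log2. Between sorted fractions 5 were higher and 4 lower in Itga5-High cells, with Col1a1 at 0.32 ± 0.0049 and Eln at -1.15 ± 0.036 log2.

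Of 5 genes for lysine hydroxylation and other crosslinking, 4 rose and 1 fell with TGF-b1 over mock. Tgm2, a transglutaminase, rose by 0.94 ± 0.019 log2 and Fkbp10, a chaperone of collagen lysyl hydroxylation, by 0.75 ± 0.016. With SB431542 against TGF-b1, 4 were lower and 1 higher, among them Plod2, the lysyl hydroxylase of collagen telopeptides, at -1.38 ± 0.018. Against mock the split was again 4 lower and 1 higher. In HFD against CD mock 3 were higher, 1 lower and 1 not called, and 2 were lower with total counts. In Itga5-High against Itga5-Low cells all 5 were higher, where 27.1% of all genes tested were. Plod1, a lysyl hydroxylase of the collagen helix, was at 780.5 ± 2.62 against 483 ± 5.26 CPM (0.73 ± 0.013 log2).

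Copper handling genes showed no shared direction with TGF-b1 over mock, with 1 of 9 higher, 4 lower and 4 not called (6 lower with total counts). Atp7a, the pump that loads copper into secreted oxidases, had 35.4 ± 1.13 CPM with TGF-b1 and 60.8 ± 0.97 CPM in mock (-0.63 ± 0.048 log2). It was 1.14 ± 0.044 log2 higher with SB431542 than with TGF-b1 alone, opposite in sign to Lox. In that comparison 4 of the list were higher and 3 lower, and with total counts 7 were higher and 1 lower. Total counts moved the median of all genes by 0.26 log2 there, and by -0.15 log2 for TGF-b1 against mock. The copper list changed in the direction of these shifts, so its total-count splits cannot be separated from them. Total-count splits of the other lists include the shift of all genes as well. Mt1, a metallothionein that binds copper and zinc, fell by 0.85 in HFD against CD mock on the log2 scale. Against mock, 4 were higher, 2 lower and 3 not called with the inhibitor, and with total counts 5 were higher and 0 lower. In HFD 1 was higher, 2 (4 with total counts) lower and 6 not called, and in Itga5-High cells 5 of 10 (4 with total counts) were higher, 3 lower and 2 not called.

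Of the other copper amine oxidases, Aoc3, the membrane-bound oxidase of adipocytes and vessels, was highest with the inhibitor among the undifferentiated groups. It had 421 ± 6.97 CPM with TGF-b1 and SB431542, 83.2 ± 2.25 CPM with TGF-b1 and 219 ± 2.61 CPM in CD mock (SD, n = 3 each). It fell by 1.25 on the log2 scale with TGF-b1 over mock and was 2.08 ± 0.026 log2 higher with the inhibitor. In Itga5-High cells it was 0.43 ± 0.012 log2 higher than in Itga5-Low cells, and for diet it was not called (0.044 ± 0.024 log2). The other genes of this list, Aoc1 and Aoc2, were low and not called for the inhibitor against TGF-b1. Aoc1 averaged 0.62 CPM with TGF-b1 and SB431542, 0.67 with TGF-b1 and 2.72 in CD mock. Aoc2 averaged 2.65, 2.59 and 2.20 CPM in the same order.

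**Figure D5:**
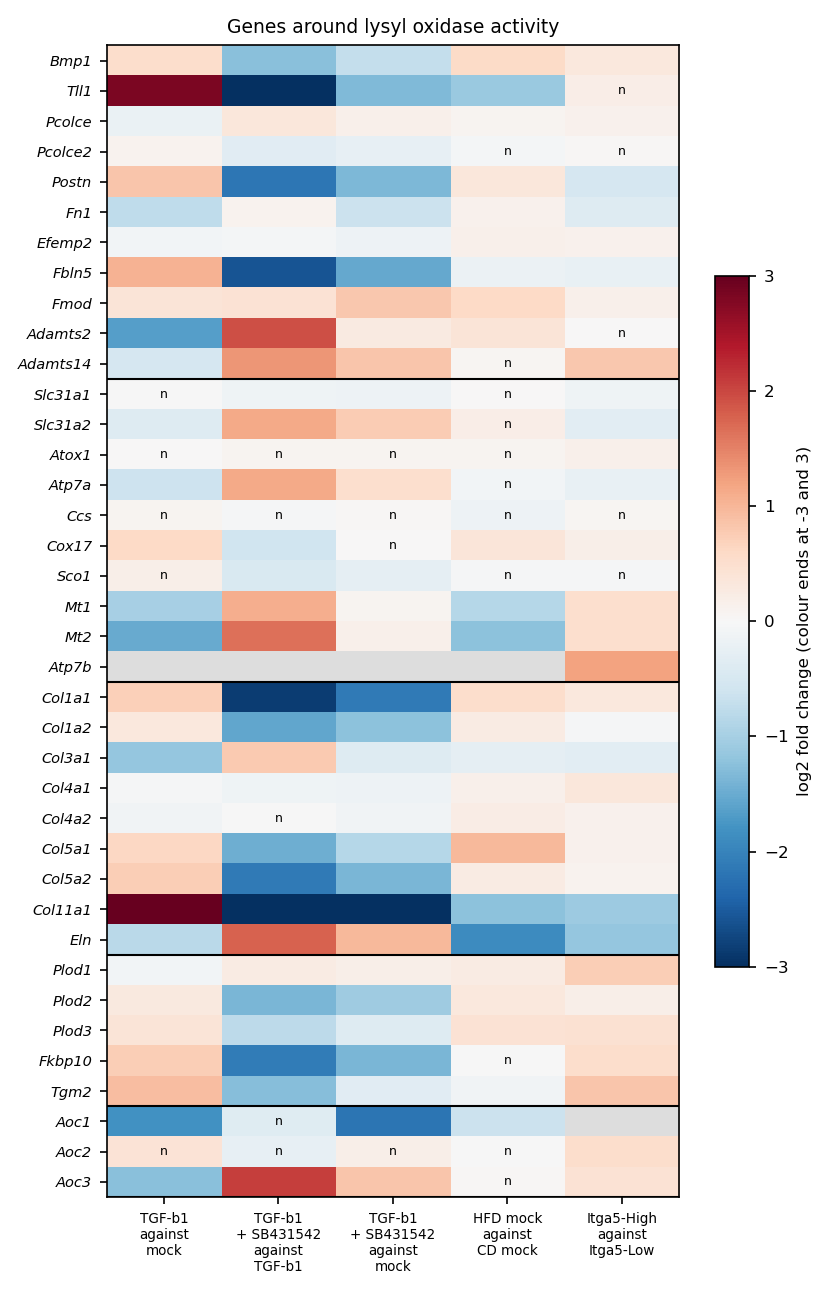
Log2 fold change (colour, red higher and blue lower, ending at -3 and 3) of genes around lysyl oxidase activity (rows) in the 5 comparisons (columns). From top to bottom, horizontal lines separate activation and matrix partners, copper handling, substrates, hydroxylation and other crosslinking, and other copper amine oxidases. The letter n marks genes that were not called and grey marks genes not tested.

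Profiles were compared over the 12 undifferentiated libraries as the root mean square distance of centred log2(CPM + 1) values among 9692 genes with a mean of at least 10 CPM. The genes nearest to Lox were Ccn4, a secreted matricellular gene, at 0.13, Itga11, a collagen-binding integrin gene, at 0.20, and Pmepa1, a feedback regulator of TGF-b signalling, at 0.41 log2. Nearest to Loxl2 were Hs6st1, a heparan sulfate sulfotransferase gene, at 0.036, Coro2b at 0.053 and Lrig3 at 0.055.

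Loxl3 lay nearest to Lsp1 at 0.100, Itga5 at 0.12 and Bag2, a co-chaperone gene, at 0.15. Loxl4 was nearest to Plod2 at 0.055, Col1a2, a fibrillar collagen chain, at 0.064 and Fstl1 at 0.072. Loxl1, which hardly varied, lay close to Ddx23 and Rbms1, both at 0.030. Between members the smallest distance was 0.42 (Loxl2 and Loxl4) and the largest 1.70 (Lox and Loxl1). This distance depends on the size of the changes as well as on their pattern. Loxl2 and Loxl4 had a Pearson correlation of only 0.64. It was 0.98 for Lox and Loxl4, at distance 1.24, and 0.96 for Loxl2 and Loxl3, at distance 0.59. These libraries share 4 groups, so the distances and correlations mostly reflect 4 group means.

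Other cells in the cultures moved alongside, and in bulk RNA fewer cells of a type cannot be told apart from less RNA per cell. Summed adipocyte markers (5 of 6 counted, Lep not) ran from 3919 to 3961 CPM with TGF-b1 and SB431542, 182 to 191 with TGF-b1, 845 to 854 in HFD mock and 1298 to 1329 in CD mock. They were 6600 to 6622 CPM in Itga5-High and 7443 to 7486 CPM in Itga5-Low cells. Macrophage markers (6 of 6) ran from 1002 to 1023 CPM with the inhibitor, 446 to 456 with TGF-b1, 1770 to 1781 CPM in HFD mock and 458 to 470 CPM in CD mock. Mesothelial markers (6 of 6) ran from 2146 to 2158 CPM with the inhibitor, 537 to 549.97 with TGF-b1, 524 to 537 in HFD mock and 2161 to 2179.8 CPM in CD mock. Endothelial markers (5 of 5) summed to 761 to 779 CPM with the inhibitor, 142 to 145 with TGF-b1, 89.5 to 95.6 in HFD mock and 304 to 321 CPM in CD mock. Pericyte and smooth muscle markers (5 of 5) summed to 845 to 867 CPM with the inhibitor, 514 to 517 with TGF-b1, 388 to 399 in HFD mock and 467 to 479 in CD mock. Of these, 2 were called higher (1 with total counts) and 3 lower with TGF-b1 over mock. Cspg4 averaged 175 CPM with TGF-b1 and 28.2 in CD mock, but Notch3 34.7 and 87.6. Of the endothelial markers, 1 was called higher there, Kdr (94.8 and 67.3 CPM), and 4 lower. In the sorted cells, macrophage markers (5 of 6 counted) ran from 37.8 to 39.3 CPM in Itga5-High and 17.4 to 19.3 CPM in Itga5-Low cells. Mesothelial markers (5 of 6 counted) ran from 99.2 to 102 CPM in Itga5-High and 42.7 to 45.4 CPM in Itga5-Low cells. Both sums were higher in Itga5-High cells mainly through Csf1r (29.1 and 9.67 CPM) and Krt19 (97.9 and 40.7 CPM). Lyz2 (5.97 and 6.10 CPM) and Wt1 (1.85 and 2.06 CPM) were not higher. Of 3 macrophage markers tested between the fractions, 2 were called higher and 1 was not called. Of 2 mesothelial markers tested, 1 was called higher and 1 was not called. Endothelial markers ran from 18.6 to 20.7 and 23.3 to 23.8 CPM in Itga5-High and Itga5-Low cells, and pericyte and smooth muscle markers from 85.5 to 91.3 and 85.5 to 96.3 CPM. The 3 lymphocyte markers were not analysed here. The part of these cells in the family's levels was not tested.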

How the data were processed

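Poly(A) RNA was sequenced by the authors. Per the submitters' processing notes, tools were fastp, STAR and featureCounts, on mm10, with no version stated there. The deposited values are estimated counts (expected counts) per RefSeq transcript, not scaled to library size, in 1 table of 12 undifferentiated libraries and 1 of 6 differentiated libraries. How the authors divided reads between transcripts is not given in the sources used here. Transcripts of a symbol were added up and the sum was rounded (Python 3.11.15, pandas 2.3.3). CPM divides by the column total.

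Each table was fitted on its own in R 4.3.3 with edgeR 4.0.16, with filterByExpr, TMM, estimateDisp, trended dispersions kept at 1e-04 or above, glmQLFit and glmQLFTest. Benjamini-Hochberg adjustment covered all genes tested, with calls made under an adjusted p of 0.05. Fits were tested on simulated data in which equal numbers of genes were raised and lowered. No shift in RNA composition was built in, so that test cannot decide between the scalings. Replicates differed slightly more than by counting, with chi-square over degrees of freedom of 1.15 to 1.25. Alternatives were total-count scaling, DESeq2 1.42.0, no filter, no dispersion floor, 2-group fits, a replicate block and leaving out each library. Genes named are the members, genes of fixed lists and the 3 nearest profiles per member, while Htra2 was added for its overlap after values were seen. Members and lists were chosen with earlier results of these data known. The sequence of Lox and 1 of the nearest profiles are not reported here.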

Additional observations from a re-analysis of the deposited data

How the results depend on the processing

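Scaling by total counts in place of TMM reversed Loxl1 for TGF-b1 against mock (-0.066 log2) and for HFD against CD mock (-0.053 log2), so that 1 member was then called lower in each. It also ended the call of Loxl4 between Itga5-High and Itga5-Low cells (0.14 log2), as did DESeq2 (0.18 log2). The call of Loxl1 for HFD against CD mock was lost in DESeq2 (0.033 log2), without the dispersion floor (0.031 log2) and with only the 2 groups in the fit (0.026 log2). With 1 library left out, Loxl1 ranged from 0.026 to 0.035 log2 for diet and Loxl4 from 0.12 to 0.25 log2 between sorted fractions. Total counts moved the median of all genes by -0.083 log2 for HFD against CD mock and by -0.041 log2 between the sorted fractions. Fits with 1 library left out also hold fewer libraries. The cause of these losses was not tested. No other member changed its direction or call under any alternative run. With lengths of the longest transcript, the share of Lox was 16.3% with TGF-b1 and SB431542, 70.3% with TGF-b1, 69.3% in HFD mock, 62.7% in CD mock, 74.4% in Itga5-High and 80.7% in Itga5-Low cells.

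Same-numbered replicates did not deviate together (correlations of deviations between -0.055 and 0.023). Replicates differed by little more than counting error, so this check cannot decide whether the numbers pair the libraries. With the replicate block 9480 genes were called for TGF-b1 against mock in place of 9538, and 25 of 25 member results kept their call. Counting limits Loxl4 most, at 263 to 836 counts per library.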
